A study of Mus musculus with 4 samples.

Results

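Among the circular RNAs (circRNAs) of the developing mouse lung, 1027 were listed at a single stage with 5 or more junction reads there. They were chosen by their reads: a circRNA, taken by its exact chromosome, start and end, had to stand in exactly 1 of 4 deposited lists and to carry at least 5 reads across its back-splice junction in that list. They are 31.9% of the 3220 circRNAs that reached 5 junction reads in any library, and 13499 circRNAs were listed in all. The libraries were made from lung of C57BL/6 mice, 1 library per stage: pseudoglandular at embryonic day 14.5, canalicular at embryonic day 16.5, terminal sac at embryonic day 18.5, and alveolar at day 7.5 after birth. No treatment or altered allele is named in the labels, and how many animals a library pools is not given. With 1 library per stage no difference between stages has a replicate check, so counts, shares and medians are given as descriptions of these libraries, without a test. In whole lung, fewer cells of a type and less RNA per cell cannot be told apart.

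A circRNA forms when the splice machinery joins the end of a downstream exon to the start of an exon upstream of it, which leaves a closed loop without a free end. Sequencing recognises it by reads that cross this back-splice junction, while linear RNA of the same gene gives reads that continue across either end into the neighbouring exon. Circles usually begin and end at annotated exon boundaries, often skip the first exon of the gene, and many genes make several circles that share an end. Stretches of the same sequence at both ends, or in 2 related genes, let a read match more than 1 arrangement, so the sequence at the ends is shown first.

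The circles with most junction reads included several whose ends share a run of identical bases. Each pair of lines below gives 20 bases to either side of the circle's 3′ end and then of its 5′ end, 5′ to 3′ in the spliced GENCODE M21 transcript (build GRCm38, the same assembly as mm10). The circle's last base is the 20th of the upper line and its first base is the 21st of the lower line. Capitals mark the direct repeat, within which the exact point of joining cannot be placed. They are shown because such repeats were more frequent among members with many reads than among circles listed at every stage, as counted further on.
Eln exon 22, 3′ end: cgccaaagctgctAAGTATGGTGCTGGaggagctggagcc
Eln exon 17, 5′ end: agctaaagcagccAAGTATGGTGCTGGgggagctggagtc
Crip2 exon 4, 3′ end: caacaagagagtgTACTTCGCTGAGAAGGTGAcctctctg
Crip2 exon 2, 5′ end: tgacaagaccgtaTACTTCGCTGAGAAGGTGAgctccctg
Hmcn1 exon 38, 3′ end: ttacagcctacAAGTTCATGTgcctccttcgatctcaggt
Hmcn1 exon 27, 5′ end: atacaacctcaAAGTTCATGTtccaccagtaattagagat
Col3a1 exon 33, 3′ end: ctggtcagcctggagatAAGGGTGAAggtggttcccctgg
Col3a1 exon 32, 5′ end: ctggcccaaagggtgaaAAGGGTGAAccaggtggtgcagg

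The repeat was 14 bases in Eln (chromosome 5, 134715684 to 134719222), which encodes elastin, and 19 in Crip2 (chromosome 12, 113143459 to 113144297), which encodes a LIM-domain protein. It was 10 bases in Hmcn1 (chromosome 1, 150703169 to 150737608), which encodes hemicentin-1 of the extracellular matrix, and 9 in Col3a1 (chromosome 1, 45337958 to 45338627), a chain of fibrillar collagen type III. The Hmcn1 circle was chosen after its values were seen. All 4 of these circles were listed in the alveolar library alone, with both ends at annotated exon boundaries in coding sequence. Members with such repeats were found at every stage, and not all had both ends at boundaries, as counted further on.

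A second kind of shared sequence lay between neighbouring related genes. The lines show the 3′ and 5′ ends of 3 circles whose ends fall in 2 different genes, with the bases that belong to an identical stretch in capitals. The Dnmt3c and Dnmt3b pair was chosen after its values were seen, as one with a short stretch.
Trbc2, 3′ end: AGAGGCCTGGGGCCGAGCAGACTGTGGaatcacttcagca
Trbc1, 5′ end: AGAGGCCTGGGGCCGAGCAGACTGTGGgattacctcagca
Gstm3, 3′ end: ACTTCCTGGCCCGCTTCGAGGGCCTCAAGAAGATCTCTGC
Gstm1, 5′ end: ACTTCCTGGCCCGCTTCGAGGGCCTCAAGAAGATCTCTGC
Dnmt3c, 3′ end: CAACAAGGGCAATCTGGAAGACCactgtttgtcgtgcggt
Dnmt3b, 5′ end: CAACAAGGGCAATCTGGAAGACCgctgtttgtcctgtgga

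Trbc1 and Trbc2 encode the constant regions of the T-cell receptor beta chain, Gstm1 and Gstm3 are glutathione transferases, and Dnmt3b and Dnmt3c are DNA methyltransferases. The identical stretch around the joined ends was 122 bases for the Trbc genes, 106 for the Gstm genes and 31 for the Dnmt3 genes.

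Some members lay a few bases from a junction that was listed at every stage. For Lrp6, a co-receptor for Wnt ligands, and Gbe1, the glycogen branching enzyme, the joined sequence of each junction is given as the last 20 bases of the circle followed by its first 20. Capitals mark the 4 bases that only the widely listed junction holds.
Lrp6 junction listed at all 4 stages: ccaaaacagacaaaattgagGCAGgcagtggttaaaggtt
Lrp6 junction listed at the terminal sac stage only: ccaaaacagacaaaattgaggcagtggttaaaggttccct
Gbe1 junction listed at all 4 stages: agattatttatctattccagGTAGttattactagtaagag
Gbe1 junction listed at the terminal sac stage only: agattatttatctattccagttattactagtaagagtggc

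In Lrp6 (chromosome 6) the 4 bases are followed by the same 4 bases again, and in Gbe1 (chromosome 16) they are not. Listed reads in these libraries named 1 flow-cell lane. Total listed junction reads by stage were 25983, 31218, 36156 and 28332, and no circRNA was listed with fewer than 2 reads. Genes that hosted a circle with 5 or more reads numbered 6 of 14 in an alveolar type 2 list, 3 of 11 in a type 1 list, 1 of 9 in an airway list, 2 of 13 in a mesenchymal list, 6 of 15 in an endothelial list, 5 of 15 in an immune list and 6 of 15 in a cardiac and striated-muscle list. None of the 9 cartilage or 5 mesothelial genes did.

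The pseudoglandular library listed 237 members, the canalicular 252, the terminal sac 345 and the alveolar 193. These are 19.5%, 17.0%, 20.1% and 15.8% of the circRNAs that reached 5 junction reads in the respective library, with exact 95% Clopper-Pearson intervals of 17.3 to 21.8, 15.1 to 19, 18.2 to 22.1 and 13.8 to 18. The library with most listed reads thus held most members, but with the read minimum scaled to depth the counts by stage were 237, 73, 109 and 97. The canalicular and alveolar counts rest on rounding. The scaled minimum of 6.01 leaves out canalicular circles with 6 reads, and that of 5.45 leaves out alveolar circles with 5 reads. With scaled minimums rounded to 5, 6, 7 and 5 reads the counts were 237, 130, 109 and 193. At the fixed minimum the share was highest in the terminal sac library and lowest in the alveolar library. No stage has a replicate library, so these intervals cannot tell whether stages differ. The lists themselves chose these circles, so the counts describe and test nothing. Intervals here and below cover counting error only, and amplified reads are not independent molecules. Members carried 6.72% of the listed junction reads of the pseudoglandular library, 5.81% of the canalicular, 7.37% of the terminal sac and 11.6% of the alveolar, where the Eln circle alone had 1646 of 3287 member reads.

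**Figure D1:**
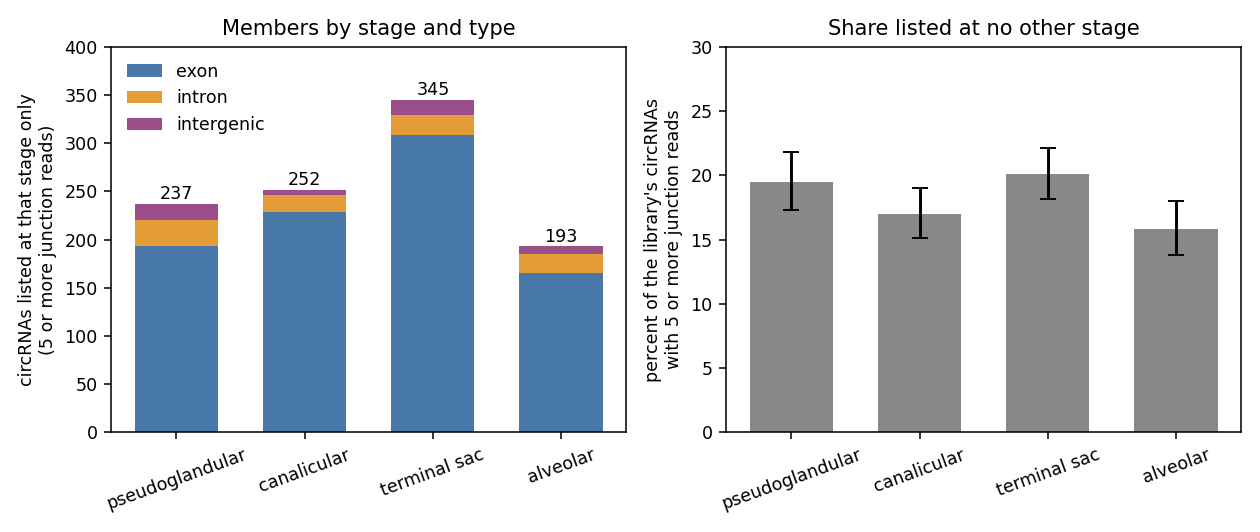
Left, number of circRNAs listed at that stage only with 5 or more junction reads, stacked by deposited type. Right, the same number as a percent of the library's circRNAs with 5 or more junction reads, with exact 95% intervals. The terminal sac library holds most members (345) at this fixed minimum, and the 4 shares lie between 15.8% and 20.1%.

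Most members were close to the threshold. Exactly 5 junction reads were found for 489, 5 to 9 for 928, 10 to 19 for 60 and 20 or more for 39, which together had 3352 of the 9510 member reads. Just outside the rule stood 1136 circRNAs with 4 reads in their only library and 245 with 5 or more reads in 1 library and 2 in a single other. The transferrin receptor gene Tfrc, for example, named after its values were seen, had a circle with 16 terminal sac reads that was left out by 2 pseudoglandular reads. As a description from the same reads that chose the members, if a library that does not list a circle is set to 3 reads, 260 members were at least 2-fold higher per listed junction read in their own library than in each of the others, 88 at least 3-fold, 46 at least 5-fold and 19 at least 10-fold. These bounds hold for exact ends and only if an unlisted library had 3 or fewer reads, and without members that share most of their reads with another junction the counts were 251, 81, 42 and 17. The other members had bounds under 2-fold at this chosen setting, so for most members a 2-fold lower level at the other stages was not shown by it. The setting of 3 reads lies above the smallest listed count of 2, and a lower setting would give higher bounds. At a minimum of 10 reads 99 members were 9.54% of the 1038 circRNAs that reached it, and at 20 reads 39 were 10.1% of 387.

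Members differed from widely listed circles in traits the rule did not use. By the deposited type, 896 were exonic (87.2%, interval 85 to 89.2), 84 intronic (8.18%) and 47 intergenic (4.58%), against 97.6% exonic among the 868 circRNAs listed in all 4 libraries. Both ends lay at exon boundaries of 1 M21 transcript for 75.7% of members (72.9 to 78.3), for 86.3% of circRNAs listed in 2 libraries, 89.9% in 3 and 92.1% in all 4. Pseudoglandular members stood lowest, at 64.6% (58.1 to 70.6), beside 82.9%, 78.6% and 74.6% at the later stages in order. Circles of the same pseudoglandular library that were also listed elsewhere reached 88.8%. Intronic circles made up 11.4% of pseudoglandular members and 10.4% of alveolar ones, and 6.75% and 5.8% of the canalicular and terminal sac ones.

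The number of alignment patterns separated members from other circles even at equal reads. The deposited pattern counts tell how many distinct ways the junction reads align, and many identical reads give few patterns. Each circRNA has 3 such counts. Only the larger of the first 2 is used here, and the last is left out, so a circle with 1 pattern by this measure can have more in all. Among circRNAs with exactly 5 junction reads, the larger of the first 2 pattern counts was 1 for 222 of 489 members (45.4%, 40.9 to 49.9). It was 1 for 48 of 241 circRNAs listed in 2 libraries (19.9%), 4 of 128 in 3 (3.12%) and 3 of 33 in all 4 (9.09%). By stage, in developmental order, the share was 52.2%, 36.1%, 49.4% and 42.7%, so that single-pattern members were frequent at every stage. A circle of Rabgap1l, a Rab GTPase-activating protein gene, had 12 canalicular reads with 1 pattern by this measure (counts of 1, 0 and 1). One of the small GTPase gene Arf3 had 11 terminal sac reads with 1 pattern (counts of 1, 1 and 0). The reads of each came from 7 flow-cell tiles, and both were chosen after their values were seen. Patterns are counted in this way throughout. Circles with fewer than 0.5 patterns per read, counting at most 50 reads, are called few-pattern below. They were 77.6% of members and 61.3%, 49.1% and 50.8% of circRNAs in 2, 3 and 4 libraries.

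**Figure D2:**
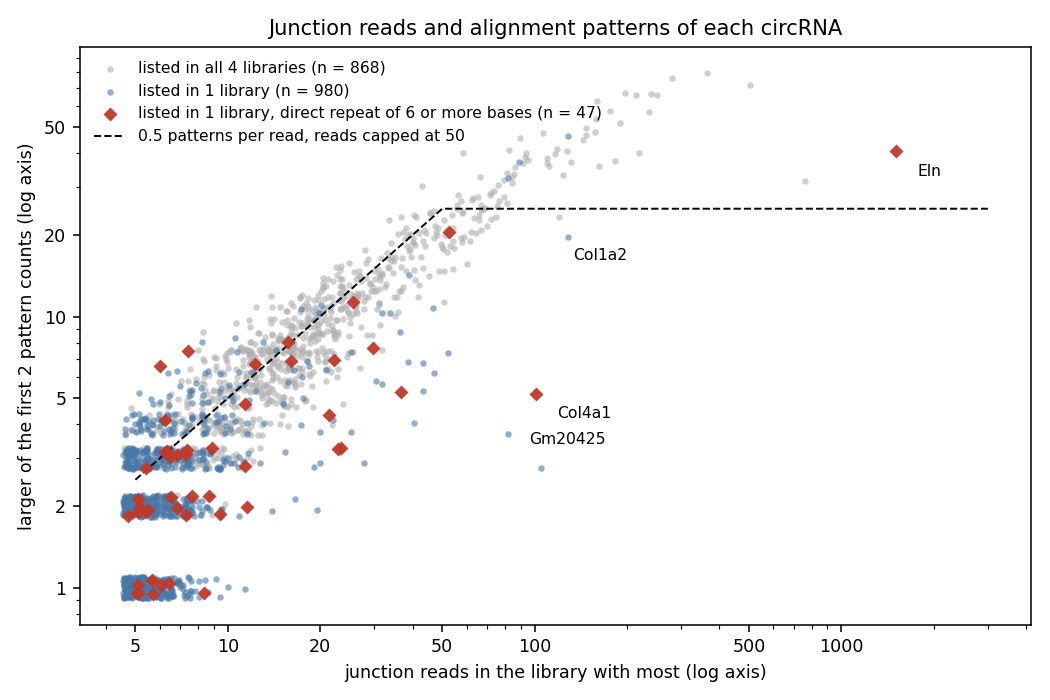
Each point is a circRNA with 5 or more junction reads, with its junction reads on the horizontal and the larger of its first 2 pattern counts on the vertical axis, both logarithmic and spread slightly to separate points. Many members fall below circRNAs listed in all 4 libraries at like reads, and members with a direct repeat of 6 or more bases (47, diamonds) include Eln and Col4a1.

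**Figure D3:**
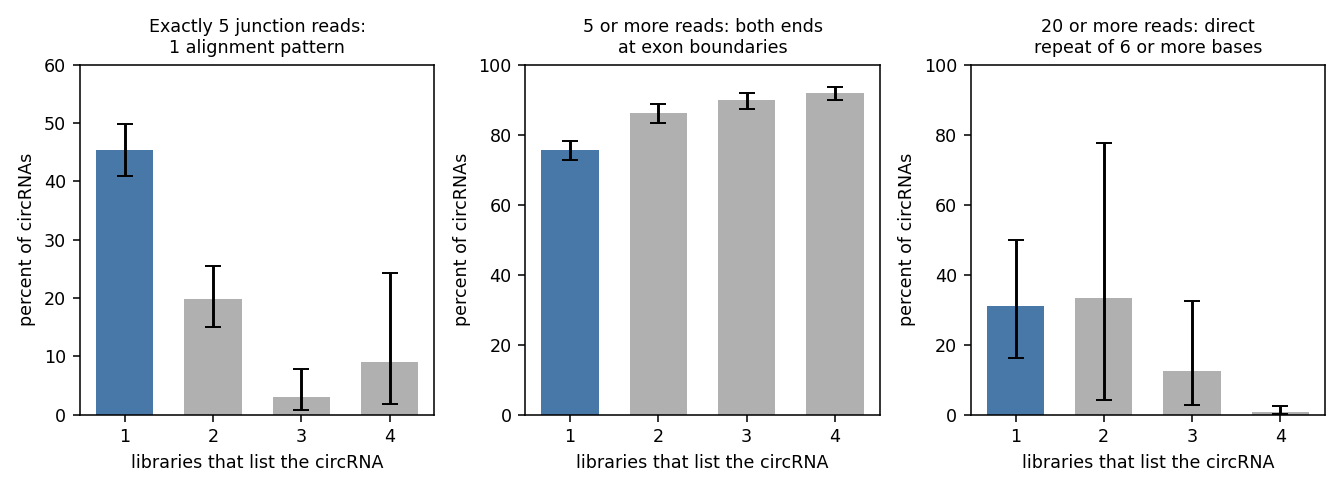
Shares by the number of libraries that list a circRNA, with exact 95% intervals: a single alignment pattern at exactly 5 reads, both ends at exon boundaries at 5 or more reads, and a direct repeat at 20 or more reads. Patterns are the larger of the first pattern counts, without the last. Circles in 1 library (left bars) stand at 45.4%, 75.7% and 31.2%, and those in all 4 at 9.09%, 92.1% and 0.68%.

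Direct repeats of 6 or more bases at the ends, as in the Eln, Crip2, Hmcn1 and Col3a1 sequences, were found in 47 of the 880 members with both ends in exons of 1 transcript (5.34%, 3.95 to 7.04). The shares were 2.66%, 2.19% and 0.839% for circRNAs in 2, 3 and 4 libraries. At 20 or more reads a repeat was present in 10 of 32 members (31.2%, 16.1 to 50) and in 2 of 294 circRNAs of all 4 libraries (0.68%, 0.0825 to 2.44). In the bands of 2 and 3 libraries the numbers were small, 33.3% with an interval of 4.33 to 77.7 and 12.5% with one of 2.66 to 32.4. By stage, in developmental order, the 47 repeat-end members numbered 12, 10, 13 and 12, and 29 of them had both ends at exon boundaries. Of the 47 repeat-end members 10 came from hosts of the matrix list, and these had 1914 of the 2273 reads. Further repeats were 15 bases in a pseudoglandular circle of Col1a2 (exons 32 to 34, 17 reads), 11 in Fbn1 (fibrillin-1 of microfibrils, 12 pseudoglandular reads) and 8 in Col4a1 (basement-membrane collagen IV, 110 terminal sac reads). The Col1a2 and Fbn1 circles were chosen after their values were seen.

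In the pseudoglandular library the host with most reads was Nlrp5-ps, a pseudogene, described with the shifted junctions below. Gnas, which encodes a stimulatory G-protein subunit, followed with 42 junction reads (chromosome 2, 174329969 to 174334284) in 7 patterns, beside 2615 non-junction reads. Its other circles, meaning here and below those that are not members, had 2 reads each in the pseudoglandular and canalicular libraries and none later. Stip1, a co-chaperone gene, had a member with 31 reads in 6 patterns (chromosome 19, 7029128 to 7034306), with 1 end inside an intron. The other Stip1 circles had 21, 19, 22 and 9 reads in order of stage, so circles of the gene were listed at all 4 stages. Matrix hosts gave Fbn2 (fibrillin-2) exons 20 to 22 with 24 reads in 7 patterns, Col6a2 exons 8 to 13 with 23 in 4, and Col4a5 exons 9 to 28 with 20 in 6. All 3 members of Fbn2 were pseudoglandular, and the other Fbn2 circles had 6 and 4 reads in the 2 earlier libraries and none in the later ones. Sec61a1, which encodes the pore subunit of the endoplasmic reticulum translocon, had 20 reads in 4 patterns.

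Canalicular members were led, after the Trbc pair, by Col4a1 exons 34 to 35 with 42 reads in 5 patterns (chromosome 8, 11218869 to 11219232), beside 12505 non-junction reads. The other Col4a1 circles went from 289 to 566, 838 and 896 reads over the 4 stages, so this member was a small part of the host's circular output. Slc38a5, an amino-acid transporter gene, had 40 reads in 4 patterns and no other circle at any stage. Col6a1 exons 10 to 20 had 34 reads in 10 patterns, and its only other circle had 2 canalicular reads. Gpbp1 exons 7 to 8 had 30 reads in 3 patterns, and other circles of this gene had 6 pseudoglandular and 8 terminal sac reads. Tln1, which encodes the focal-adhesion protein talin, had 28 reads over exons 5 to 13 in 6 patterns and 3 reads in another canalicular circle. Smc4, a condensin subunit, had 25 reads over exons 7 to 9 with a repeat of 7 bases, and Col6a2 exons 11 to 15 had 25 reads, also with a repeat of 7 bases.

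Among terminal sac members Col4a1 exons 23 to 28 had 110 reads in 5 patterns (chromosome 8, 11223050 to 11232030). A circle with 89 reads in 4 patterns was assigned to Gm20425 (chromosome 9, 103215193 to 103217455). The transferrin gene Trf spans both of its ends too, 111066 non-junction reads were counted across them, and with the counting not stated to use strand the host cannot be told. Os9, a lectin gene of endoplasmic reticulum quality control, had 52 reads in 8 patterns and no other circle. Dvl2, a cytoplasmic transducer of Wnt signals, had 47 reads in 7 patterns with both ends inside exon 16, where Acadvl is annotated too. Cdh11, an adhesion molecule of mesenchymal cells, had 22 reads over exons 6 to 8 with a repeat of 6 bases, and its other circles had 4, 3, 7 and 10 reads by stage. Apoa2, an apolipoprotein gene, had 21 reads in 2 patterns beside 15540 non-junction reads, and no other circle.

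The alveolar library held the Eln circle of exons 17 to 22, whose 1646 reads fell into 39 patterns on 112 tiles, beside 3848 non-junction reads. The other Eln circles had 3, 2, 41 and 19 reads by stage, far fewer than the member in that library. Col1a2, a chain of collagen type I, gave 124 reads over exons 8 to 10 in 19 patterns beside 15020 non-junction reads. A second alveolar member of Col1a2, over exons 19 to 33, had 45 reads in 11 patterns, and the only circle of the gene outside the members had 2 alveolar reads. Sftpb, which encodes surfactant protein B, had 108 reads over exons 9 to 11 in 3 patterns beside 16650 non-junction reads (chromosome 6, 72312353 to 72314371). Slc34a2, a phosphate transporter of type 2 cells, had 27 reads in 11 patterns with a repeat of 7 bases beside 9123 non-junction reads. Neither of these type 2 genes had another listed circle. Col5a1 exons 26 to 32 had 50 reads in 6 patterns, whereas the other Col5a1 circles were even over the stages at 17, 15, 16 and 18 reads. Crip2 had 49 reads in 19 patterns and no other circle, Col3a1 exons 32 to 33 had 38 reads in 5 patterns, and Hmcn1 had 38 over exons 79 to 80 in 9 patterns and 30 over exons 27 to 38 in 7.

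Most of the 39 members with 20 or more reads had a high linear signal, which was not particular to members. Non-junction reads reached 1000 or more for 29 of the 39, with a median of 1689 (quartiles 947 and 4486). The median was 355 (226 and 642) for circRNAs of all 4 libraries with as many junction reads. It was 2873 for the 8 such circRNAs in 2 libraries and 842 for the 28 in 3. Few patterns were found for 34 of the 39 (87.2%), beside 62.5%, 78.6% and 57.4% of circRNAs with 20 or more reads in 2, 3 and 4 libraries. Of the 39 members 14 came from the matrix list, 10 of them from collagen genes. Their reads came from 17 or more tiles each. The exceptions by the few-pattern limit were the Eln circle, both Nlrp5-ps junctions, the Trbc pair and Adam10. All but Adam10, a membrane sheddase gene with 20 terminal sac reads in 10 patterns, pass only because at most 50 reads are counted. The Eln circle had 39 patterns for 1646 reads, so most of its reads repeat a pattern. The part of linear abundance, duplicate reads and sequence repeats in these circles being listed once was not tested.

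Members were also counted by lists of host genes. These lists were chosen with earlier results of these data known, and they hold several of the hosts with most reads named above. Their shares and intervals are therefore descriptions and test nothing. Of 45 matrix and elastic-fibre circles with 5 or more reads, 32 were members (71.1%, 55.7 to 83.6), and for abundant secreted, translation and cytoskeleton genes 8 of 11 were (72.7%, 39 to 94), beside 31.9% over all circRNAs. The matrix members were spread over 12 pseudoglandular, 6 canalicular, 5 terminal sac and 9 alveolar circles from 16 hosts, with a median of 3344 non-junction reads. Without repeat-end or few-pattern circles 4 of the 32 were left, and none of the 8. Over all members this step left 56 of 237 pseudoglandular, 43 of 252 canalicular, 75 of 345 terminal sac and 47 of 193 alveolar circles. Most members of every stage were thus left out too, so the loss is not particular to these lists. Endothelial hosts gave 7 of 14 (50%, 23 to 77), an interval that covers the overall share, with none of the 7 pseudoglandular and 4 alveolar, including Prex2, a Rac exchange factor, with 9 alveolar reads over exons 31 to 34, and Calcrl, an adrenomedullin receptor, with 9. The other Prex2 circles had 2, 5, 44 and 54 reads by stage and the other Calcrl circles 5 alveolar reads alone.

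Lists of nuclear and contractile genes stood near or below the overall share. Chromatin regulators gave 23 of 99 (23.2%, 15.3 to 32.8), led by Nsd1, a histone methyltransferase, with 10 pseudoglandular reads over exons 14 to 20 and 9 canalicular reads over exons 2 to 4. Other Nsd1 circles had 68, 53, 48 and 61 reads, so the members were minor forms of a host listed at every stage. RNA-binding and splicing factors gave 12 of 39, led by the helicase Dhx9 with 18 pseudoglandular reads. Cell-cycle hosts gave 9 of 31, of which 6 were canalicular, and the condensin gene Smc4 and the helicase Hells (9 pseudoglandular reads) had most reads. Smooth muscle and pericyte hosts gave 1 of 16, Itga8 with 5 terminal sac reads. Cardiac and striated-muscle hosts gave 6 of 16, of which 4 were pseudoglandular, among them Ttn (titin) with 6 reads over exons 67 to 120. Other Ttn circles had 51, 11, 8 and 10 reads by stage. Immune hosts gave 4 of 9, including a Mertk circle with 7 terminal sac reads, and alveolar type 2 hosts 3 of 8, all few-pattern: Sftpb, Slc34a2 and the flippase Atp8a1 with 12 terminal sac reads. Circles of 1 host share its RNA and are not independent.

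**Figure D4:**
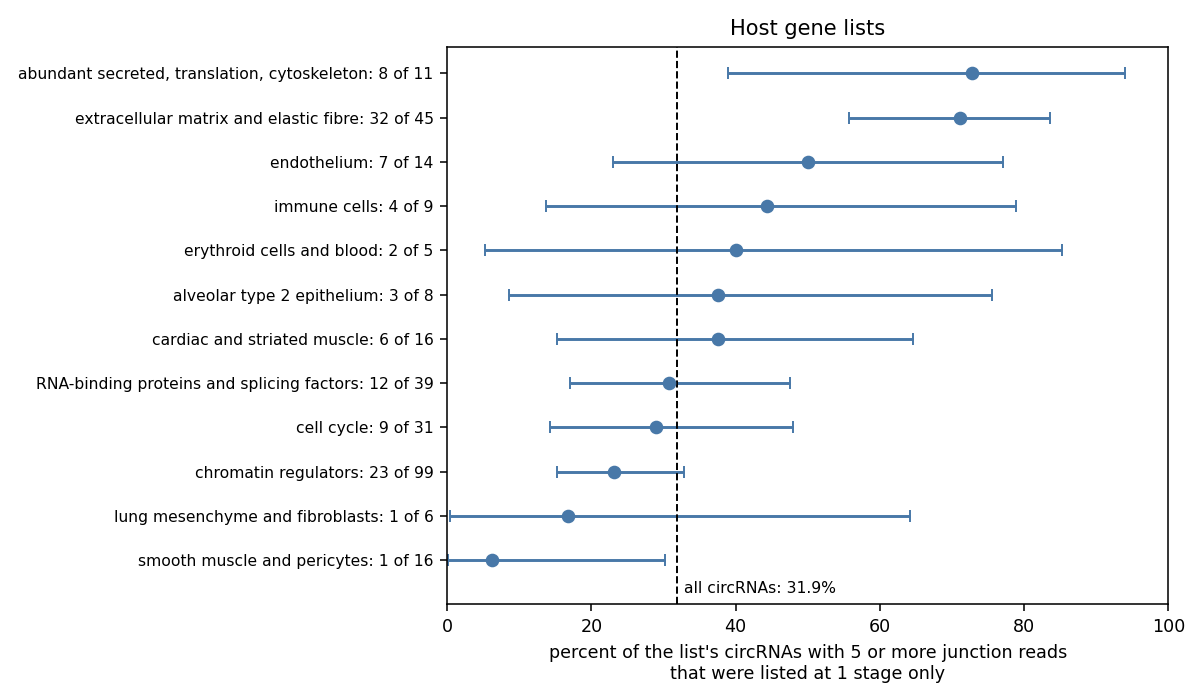
Percent of each list's circRNAs with 5 or more junction reads that were listed at 1 stage only, with exact 95% intervals over circRNAs, for lists with at least 5 such circRNAs. The dashed line is the share over all circRNAs (31.9%), which the matrix interval (55.7 to 83.6) lies above and the smooth muscle interval (0.158 to 30.2) below. The lists were chosen with earlier results of these data known, so the place of an interval is a description and no test.

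Shifted ends accounted for a small number of members with many reads. A junction with both ends within 20 bases was listed at another stage for 19 of 1027 members (1.85%, 1.12 to 2.87), and for 9 of these at all 3 other stages. The largest offset was 5 bases or less in 16. Neighbouring junctions are not counted here for circRNAs of more libraries, so this share has no background beside it. Of member reads 3.7% were also listed under another circRNA of the same library. For circRNAs in 2, 3 and 4 libraries, taken in the library with most reads, it was 0%, 0.234% and 0.652%. Reads give a closer view: 14 members shared a fraction of at least 0.5 of their reads, by read name, with another junction of the same library, and for 8 of these the partner was listed in all 4 libraries. For Lrp6, all 20 terminal sac reads were listed again under the junction 4 bases away, which had 60, 57, 40 and 18 reads in order of stage. For Gbe1 all 38 were, under a junction with 10, 27, 70 and 12 reads. For Nlrp5-ps (chromosome 7) 84 of 84 pseudoglandular and 116 of 118 terminal sac reads were, under a junction with 139, 159, 147 and 83. The others, named after their values were seen, were S100pbp with 16 of 16, Eprs with 16 of 17, Epc1 with 15 of 16 and Tinag with 7 of 7. In 6 of these 8 the widely listed junction had more ends at exon boundaries of an M21 transcript than the member, and in 4 of them, at Lrp6, Eprs, S100pbp and the pseudoglandular Nlrp5-ps, it had 2 and the member 1. At Gbe1 both junctions had 2 such ends and at Tinag both had 1. By exact ends these circles are listed at 1 stage, while most of their reads were also listed under junctions found at all 4.

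**Figure D5:**
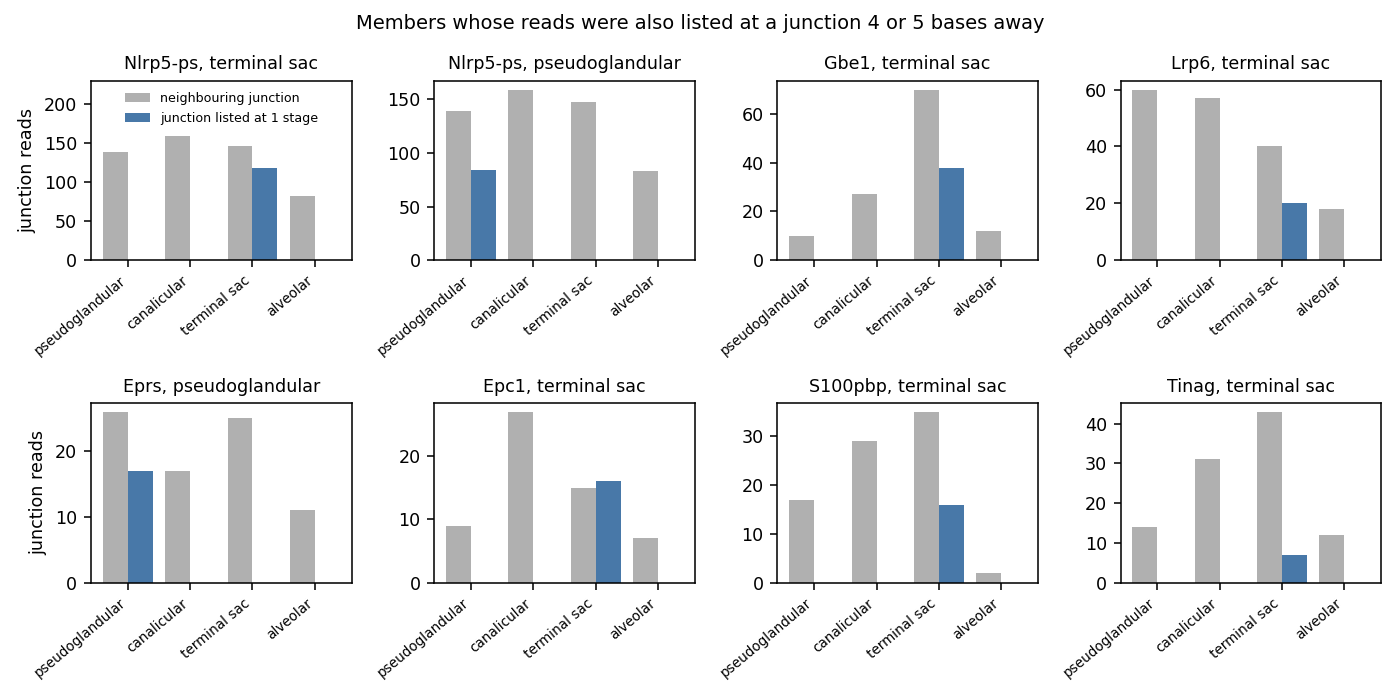
Junction reads by stage of 8 members (right bars) and of the junction 4 or 5 bases away under which at least 0.5 of their reads were also listed (left bars). The neighbouring junction has reads at all 4 stages, for example 60, 57, 40 and 18 for Lrp6, and the member at 1.

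Some members without a host joined genes that share sequence. Of the 47 intergenic members 12 had their ends in exons of 2 genes that share an identical stretch of 20 or more bases around the ends, and these had 236 of the 442 reads. Among 42 intergenic circRNAs listed in 2 or more libraries 10 were of this kind, a like share (23.8%, 12.1 to 39.5, beside 25.5%, 13.9 to 40.3). Trbc1 and Trbc2 (chromosome 6, 41539114 to 41547104) had 90 canalicular reads in 34 patterns. Gstm3 and Gstm1 (chromosome 3, 107966087 to 108012778) had 30 alveolar reads in 11 patterns beside 9 non-junction reads, and Mfap1b and Mfap1a, splicing-factor genes, 27 pseudoglandular reads over an identical stretch of 1096 bases. Linear RNA of the 2 genes and a circle across them cannot be told apart by these reads where the sequence is identical. Further pairs, named after their values were seen, were Ddx19a and Ddx19b with 17 terminal sac reads, Krt6b and Krt6a with 13 canalicular reads, and Dnmt3b and Dnmt3c with 7 canalicular reads.

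Intronic members had a median span of 3414 bases, beside 10209 for all members, and a higher junction ratio than exonic members. Intronic circRNAs of more libraries were not set beside them, so these values are not shown to be particular to members. The 84 had a median of 39 non-junction reads and a median junction ratio of 0.223, against 346 and 0.034 for exonic members. In this ratio each junction read is counted once at each end of the circle, and the sum is divided by itself plus the non-junction reads. It is therefore larger than the plain fraction of reads that cross the junction. A single end lay at an exon boundary in 37 and no end in 45. None exceeded 11 reads, reached by Gm13483 (a non-coding gene) in the canalicular library and by Fstl1 (a follistatin-like secreted protein) and Gpc6 (a glypican) in the pseudoglandular. The other Gm13483 circles had 14, 7, 15 and 15 reads by stage, and Fstl1 and Gpc6 had other circles in the pseudoglandular library alone, with 4 and 9 reads.

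The hosts of members were mostly listed at other stages through other circles. The 980 members with a host came from 812 genes, of which 123 had 2 or more members and 89 had members at more than 1 stage. Stag1, a cohesin subunit gene, had 1 member at each of the 4 stages, with other circles at 46, 42, 51 and 17 reads. Adamts17, an ADAMTS-family metalloprotease gene, had most, with 2 canalicular and 3 terminal sac members, and Cdk5rap2, a centrosomal gene, had 4, all pseudoglandular. These 3 genes were picked for their counts. Of all members 77.7% had a host with another circle at another stage, or 46.5% when that circle needed 5 or more reads, and 87.7% of circRNAs in all 4 libraries had one by the first measure. For 521 members (50.7%) at least 1 end was shared with a circle listed at another stage, among them 107 that shared both ends with different circles, and 506 shared neither. Shared ends were not counted for circRNAs of more libraries, so this share has no background beside it. Among the 777 members with both ends at exon boundaries the median was 4 exons, as it was for the 799 such circles of all 4 libraries. Single-exon circles were 3.47% of these members and 11.5% of the widely listed circles, and 27.9% of the members began at exon 2, against 46.8%.

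A host listed at no other stage was found for 182 members from 177 genes, 43 pseudoglandular, 43 canalicular, 59 terminal sac and 37 alveolar. Besides Sftpb, Slc34a2, Crip2, Os9, Apoa2, Slc38a5, Col6a1 and Tln1, they included Hmgcs1, a sterol synthesis enzyme, with 15 pseudoglandular reads, and Parva, a focal-adhesion adaptor, with 17 canalicular reads in 5 patterns. Both were chosen after their values were seen. Of these 182 members 31, 39, 44 and 29 by stage were few-pattern, a trait of 77.6% of all members.

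A smaller set of members met 5 criteria at once. Both ends at exon boundaries, more than the few-pattern limit, no repeat of 6 bases, no neighbouring junction and no shared reads were found together in 166 members (16.2%), 37 pseudoglandular, 36 canalicular, 57 terminal sac and 36 alveolar. How many circRNAs of more libraries meet all 5 was not counted, so whether 16.2% is low cannot be said. Few-pattern circles alone were 50.8% of circRNAs in all 4 libraries. Linear signal was not a criterion, and the set holds circles with many non-junction reads, such as Macf1 with 5578. The median of the set was 6 junction reads and the highest 20, for Adam10 (chromosome 9, 70703287 to 70722771, exons 2 to 4). Other circles of Adam10 had 8, 10, 16 and 17 reads by stage. Dnajc1, a co-chaperone of the endoplasmic reticulum, had 19 terminal sac reads in 11 patterns over exons 4 to 8, and its other circles had 7, 16, 27 and 14. Rnf219 had 11 pseudoglandular reads over exons 2 to 5 and no other circle, and Stag2, a cohesin gene like Stag1, had 11 terminal sac reads, with its 3 other circles in the same library at 9 reads in all. In the alveolar library Tmcc1 and Myof, a ferlin gene of membrane repair, had 10 reads each and Selenbp1, a selenium-binding protein gene, 9 with no other circle. Zbtb16, a zinc-finger transcription factor gene, had 9 terminal sac reads and no other circle. These 8 genes were named from the reads of this set, after their values were seen.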

How the data were processed

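Total RNA of mouse lung was sequenced, 1 library per stage. Build mm10 and the tools BWA, HTSeq, StringTie, HISAT2 2.0.5 and cutadapt are given in the submitters' processing notes without roles, and the file type bears the name of the caller CIRI. Junction reads and non-junction reads are raw counts, per the file headers, and a blank non-junction count was read as 0. The junction ratio is a fraction deposited by the authors and was recomputed from the counts with 0 mismatches. The deposited alignment patterns, types, host identifiers and read names were used as listed. Filters applied before deposit, beyond the minimum of 2 reads seen in the files, are not given in the sources used here.

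Members and gene lists were chosen with earlier results of these data known. Members were found by exact chromosome, start and end. Ends were placed in GENCODE M21 transcripts, repeats were read from the spliced transcripts, and 6 host identifiers were not matched. Shares carry exact Clopper-Pearson 95% intervals. No count test was run, since each stage has 1 library. The lower bound of a fold sets an unlisted library to 3 reads and scales by listed junction reads. Named genes were the 8 members with most reads per stage, each host once per stage, 4 with a neighbouring junction, 3 intronic, 3 intergenic and up to 3 per gene list, and others are said to be chosen after their values were seen. Repeat, neighbour and pattern steps were tested on simulated data. Python 3.11.15, numpy 2.4.6, pandas 2.3.3, scipy 1.17.1 and matplotlib 3.10.9 were used. Alternatives covered the read minimum, depth scaling, merged ends, repeat length, pattern limits, boundary tolerance and hosts, and 3 more were chosen after seeing the data. Splice dinucleotides in introns were planned and were not analysed here.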

Additional observations from a re-analysis of the deposited data

How the results depend on the processing

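No paired analysis was possible because each stage has 1 library and no test was run. The number of members followed the read minimum: 4649 at 3 reads, 99 at 10 and 39 at 20, or 1122, 1145, 1421 and 961 by stage at 3 reads, 26, 20, 35 and 18 at 10, and 8, 9, 10 and 12 at 20. A minimum scaled to depth gave 516 members, with 237 pseudoglandular, 73 canalicular, 109 terminal sac and 97 alveolar. Rounded to the nearest whole read, chosen after seeing the data, it gave 669, with 237, 130, 109 and 193 by stage. The lead of the terminal sac library did not hold in either case, and the alveolar count depended on the rounding. In place of circRNAs, 265 host genes met the rule. With 2 or more alignment patterns, chosen after seeing the data, 689 members were left, 152 pseudoglandular, 172 canalicular, 233 terminal sac and 132 alveolar. The members dropped there had 1 pattern, 85, 80, 112 and 61 by stage. Merging ends within 5 or 20 bases, and leaving out members with shared reads (chosen after seeing the data), kept the count within 1.5 times.

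Exonic circles were 83.8% at 3 reads and 92.3% at 20, intronic 12.2%, 4.04% and 0% at 3, 10 and 20, and intergenic 8.08% and 7.69% at 10 and 20. A neighbour within 100 bases was found for 3.02%. Over all 1027 members repeats were found in 4.58%, or 2.24% at 8 bases and 0.876% at 10. Few patterns fell to 36.4% with the stricter limit of 0.25 patterns per read, and hosts with another circle of 5 or more reads elsewhere were 46.5%. Without repeat-end and few-pattern members the canalicular share of members went from 24.5% to 19.5%. The lists then held 4 matrix, 2 endothelial, 1 erythroid, 1 cardiac, 2 cell-cycle, 10 chromatin and 2 RNA-binding members, and 0 each of type 2, immune and abundant genes. Over all members 56, 43, 75 and 47 were left by stage. Splice dinucleotides were not run, since intron sequence was not used here. Depth limits the lists themselves: 489 members had 5 reads, and a circle with fewer than 2 reads is in no list.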

Other observations

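Among the repeat-end members 3 had further unusual values and were chosen after these were seen. The terminal sac circle of Gtf2ird1, a gene of the general transcription factor II-I repeat family, had 12 junction reads in 7 patterns over exons 26 to 28, a repeat of 247 bases at its ends and 9 non-junction reads. A pseudoglandular circle of Firre, a long non-coding RNA gene with repeated segments, had 6 reads in 6 patterns and a repeat of 86 bases. Rpph1, the RNA component of ribonuclease P, had 8 pseudoglandular reads in 7 patterns and a repeat of 8 bases beside 162210 non-junction reads, with both ends inside its exon 1. None of the 3 is few-pattern.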
